A study of Mus musculus with 4 samples.

Results

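Interferon-stimulated genes are the genes that cells switch on when they sense interferon, and the 50 described here were taken by symbol from the FPKM table of a study of mouse bone marrow stroma. All 50 were found among 23997 symbols, and 1 row was kept for each, that with the highest mean over the 4 libraries. RNA was sequenced from cultured mesenchymal stem/progenitor cells (MSPC), the adherent stromal cells that grow out of bone marrow, of Asxl1-/- and wild-type mice. Asxl1 codes for a chromatin regulator of the Polycomb and BAP1 system. There were 2 libraries labelled Asxl1-/- and 2 labelled wild type (WT), all on the C57BL/6 background, from cells at passages 5 to 10 in MesenCult medium with 20% supplement. The sources used here do not give how the Asxl1 allele was made, which cells it affects in the animal, the age of the mice or any treatment with interferon. Nor do they tell if cultures of a genotype derive from different animals. P-values therefore reflect the spread between these samples, which may be technical.

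Interferons bind receptors at the cell surface. Type I interferon then acts through the kinases Jak1 and Tyk2 on the complex ISGF3, which holds Stat2 and Irf9 and binds the interferon-stimulated response element (ISRE) in promoters. Type II interferon acts through Jak1 and Jak2, and its target promoters carry the gamma-activated site (GAS). Mesenchymal stromal cells are known to respond to both kinds, and their response is part of how they act on immune cells.

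Values are FPKM, that is fragments scaled to transcript length and to all mapped fragments. The FPKM sum was 553089 and 497340 in Asxl1-/- replicates 1 and 2 and 563749 and 703730 in WT replicates 1 and 2. The read number per library is unknown. Asxl1 stood at 0.273 and 0.312 FPKM in the Asxl1-/- libraries and at 14.6 and 11.2 in the WT libraries, as the labels have it. The mesenchymal collagen genes Col1a1 and Col1a2 reached at least 1049 FPKM in every library. The mesenchymal markers Col3a1, Cxcl12, Pdgfrb and Thy1 reached at least 33.7 FPKM in every library, and others were less even. Pdgfra stood at 58.8 and 63.0 FPKM in the Asxl1-/- libraries and at 80.9 and 4.78 in the WT libraries. Vcam1 stood at 14.5 and 49.7 against WT values of 57.3 and 58.8, and Eng at 0.906 and 0.571 against WT values of 10.7 and 0.912. Markers of T, B and NK cells, erythroid cells, neutrophils and plasmacytoid dendritic cells summed to at most 1.26 FPKM per list in any library. Of 5 endothelial markers, Cdh5 stood at 7.11 FPKM in Asxl1-/- replicate 2.

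The promoters of 6 members are shown. The first 3 genes were chosen because they were far apart between cultures of 1 genotype. The last 3 were chosen because they belong to the GTPase family that holds the members without overlap between the genotypes, though Igtp itself overlapped. Each runs from 250 bases before the gene start to 50 after it, 5′ to 3′ on the gene's strand, from RefSeq (GRCm38.p6). Capitals mark matches, on either strand, to the ISRE core GAAANNGAAA and to the GAS letters TTCNNNGAA.
Isg15 (chr4:156200769-156201068, minus strand): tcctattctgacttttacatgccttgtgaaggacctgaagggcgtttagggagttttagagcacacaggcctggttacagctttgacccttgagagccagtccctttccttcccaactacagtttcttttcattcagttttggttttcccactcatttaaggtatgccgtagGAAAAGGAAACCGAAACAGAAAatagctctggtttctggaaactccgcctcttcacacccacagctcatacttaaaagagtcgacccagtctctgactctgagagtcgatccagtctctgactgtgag
Ifit1 (chr19:34640639-34640938, plus strand): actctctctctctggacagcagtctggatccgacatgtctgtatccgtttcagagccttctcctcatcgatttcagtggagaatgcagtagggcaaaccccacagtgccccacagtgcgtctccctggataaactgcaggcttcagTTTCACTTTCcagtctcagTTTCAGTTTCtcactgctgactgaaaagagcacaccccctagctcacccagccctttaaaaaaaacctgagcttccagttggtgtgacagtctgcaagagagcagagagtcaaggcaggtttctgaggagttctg
Bst2 (chr8:71537423-71537722, minus strand): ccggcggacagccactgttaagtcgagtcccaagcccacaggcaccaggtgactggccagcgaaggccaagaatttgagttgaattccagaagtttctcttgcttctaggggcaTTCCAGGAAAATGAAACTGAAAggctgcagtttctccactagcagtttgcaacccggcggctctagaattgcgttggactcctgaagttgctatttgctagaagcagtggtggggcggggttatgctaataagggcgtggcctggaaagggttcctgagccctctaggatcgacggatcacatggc
Tgtp1 (chr11:48992197-48992496, minus strand): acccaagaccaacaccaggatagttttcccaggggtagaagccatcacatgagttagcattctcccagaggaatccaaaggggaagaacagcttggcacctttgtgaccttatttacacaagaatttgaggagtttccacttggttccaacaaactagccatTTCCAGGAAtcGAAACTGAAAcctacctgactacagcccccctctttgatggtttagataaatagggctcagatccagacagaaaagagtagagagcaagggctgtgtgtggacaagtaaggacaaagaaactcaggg
Irgm1 (chr11:48871371-48871670, minus strand): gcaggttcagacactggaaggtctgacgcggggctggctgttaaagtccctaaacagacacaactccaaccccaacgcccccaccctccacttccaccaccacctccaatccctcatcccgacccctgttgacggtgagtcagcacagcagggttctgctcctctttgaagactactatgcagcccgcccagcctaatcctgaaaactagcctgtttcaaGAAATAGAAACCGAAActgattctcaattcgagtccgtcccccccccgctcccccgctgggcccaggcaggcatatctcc
Igtp (chr11:58199306-58199605, plus strand): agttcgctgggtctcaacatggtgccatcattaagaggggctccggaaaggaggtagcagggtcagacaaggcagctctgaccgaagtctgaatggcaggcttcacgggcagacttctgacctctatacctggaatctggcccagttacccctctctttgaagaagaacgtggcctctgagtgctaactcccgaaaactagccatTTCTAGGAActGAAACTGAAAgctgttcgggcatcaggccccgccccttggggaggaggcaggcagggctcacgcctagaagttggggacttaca
Of the 50 members, 37 had such a window, and 19 of the 37 held the ISRE letters, against 3.44% of all 32851 windows in the table. The GAS letters stood in 9 of the 37, against 8.3% of all windows. Isg15 had 3 overlapping ISRE matches, and Bst2, Irgm1, Oas1a, Oas1g and Gbp3 had 2 that overlapped. Windows of Bst2, Tgtp1, Igtp, Gbp7, Oas1a and Eif2ak2 held both motifs, as did 0.454% of all windows. In Tgtp1 the GAS began at position -88 from the gene start and the ISRE at -77. In Igtp they began at -45 and -34, with the same spacing. Ifi47, also without overlap between the genotypes, is not shown, and its window held 0 matches to either motif. A match describes letters and is not evidence of binding.

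The genotypes overlapped for all but 3 of the 50 genes, which were higher in Asxl1-/-. Of all genes tested, 15.6% were higher and 25.2% lower in Asxl1-/- without overlap. Cultures of the same genotype lay far apart. The FPKM of the 50 genes summed to 2122 in Asxl1-/- replicate 1 and 362.4 in Asxl1-/- replicate 2, against 999.3 in WT replicate 1 and 466.2 in WT replicate 2. The median deviation of a member's log2(FPKM + 1) from its mean over the 4 libraries was 1.17 and -0.90 in Asxl1-/- replicates 1 and 2, and 0.48 and -0.62 in WT replicates 1 and 2. Over all 11481 genes tested these medians lay between -0.05 and 0.08. Since RNA came from whole cultures, fewer responding cells and less RNA per cell cannot be told apart.

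**Figure D1:**
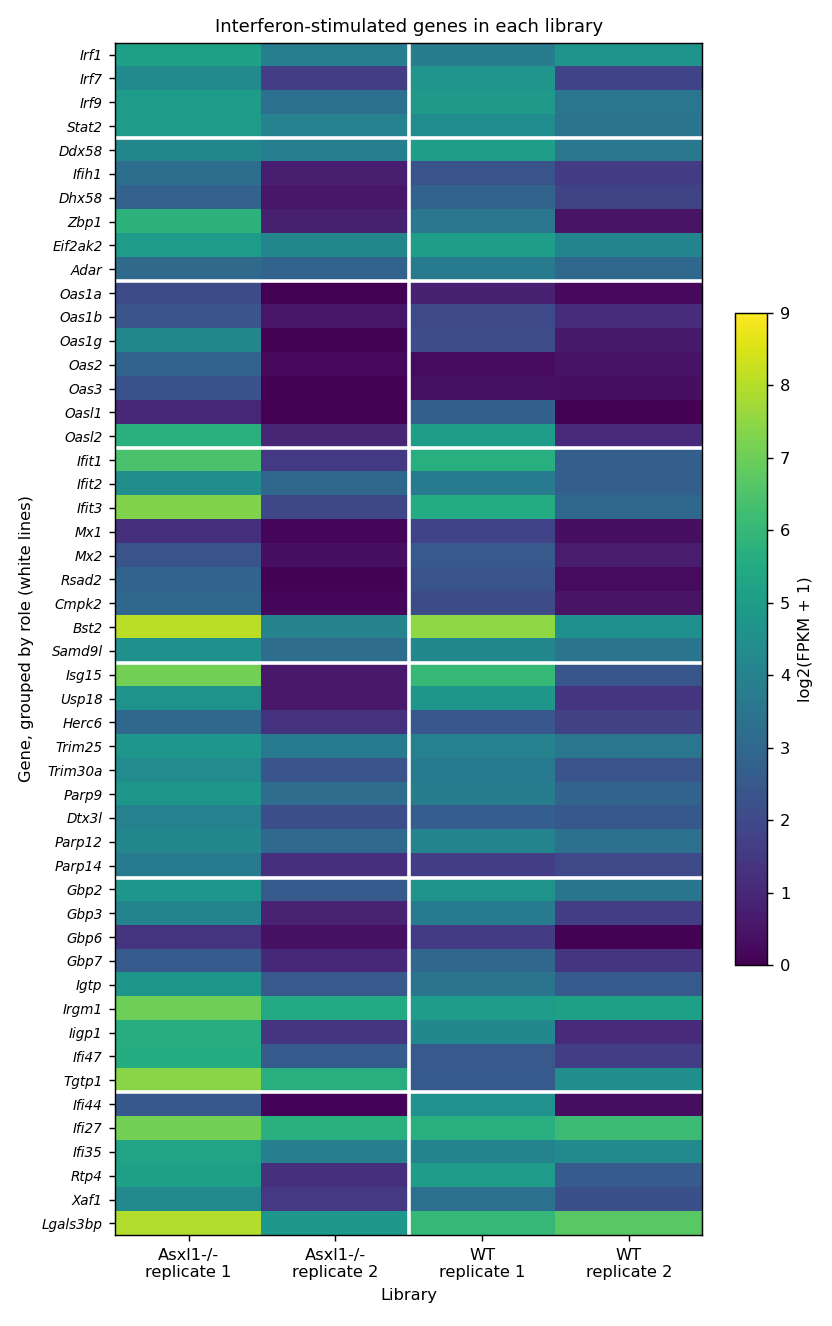
Level of each of the 50 genes, as log2(FPKM + 1) in colour, in the 4 libraries, with genes in rows by role and Asxl1-/- columns left of WT columns. Asxl1-/- replicate 1 is the brightest column for 38 genes and WT replicate 1 for the other 12.

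The highest library was Asxl1-/- replicate 1 for 38 members (21.3% of all genes tested) and WT replicate 1 for 12 (37.4% of all genes). The lowest was Asxl1-/- replicate 2 for 34 (27.1% of all genes), WT replicate 2 for 11 (20.4%) and WT replicate 1 for 4 (24.9%). Oasl1 was listed at 0 in both replicates 2. The most frequent order, held by 22 members, ran Asxl1-/- replicate 1, WT replicate 1, WT replicate 2, Asxl1-/- replicate 2 from high to low. For 12 of the 50 members, 5 of these 22 among them, the 2 lowest libraries were both under 1 FPKM, and the order of those libraries is uncertain.

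Between the cultures of 1 genotype there is 1 library a side and no test. On the log2(FPKM + 1) scale, 45 of 50 members were over 2-fold higher in Asxl1-/- replicate 1 than in Asxl1-/- replicate 2, as were 6% of all genes tested, and 0 were over 2-fold lower (5.25% of all genes). In WT, 26 of 50 were over 2-fold higher in replicate 1 than in replicate 2 (6.67% of all genes) and 1, Tgtp1, was over 2-fold lower (6.88%). The 45 hold Oas1a, Oas2 and Oas3, which passed the filter of a mean of at least 1 FPKM only through Asxl1-/- replicate 1. The 26 hold Mx1, Gbp6 and Oasl1, which passed it only through WT replicate 1. The median differences were 2.13 in Asxl1-/- and 1.06 in WT. Both differences passed 2-fold for 24 members and for 1.04% of all genes. These comparisons share no library. Across the 50 members, as a description, the Asxl1-/- and WT differences had a Pearson's r of 0.58 and a Spearman's rho of 0.51, and across all genes tested they were -0.12 and -0.15. Replicate numbers follow the order of deposit and pair no samples.

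**Figure D2:**
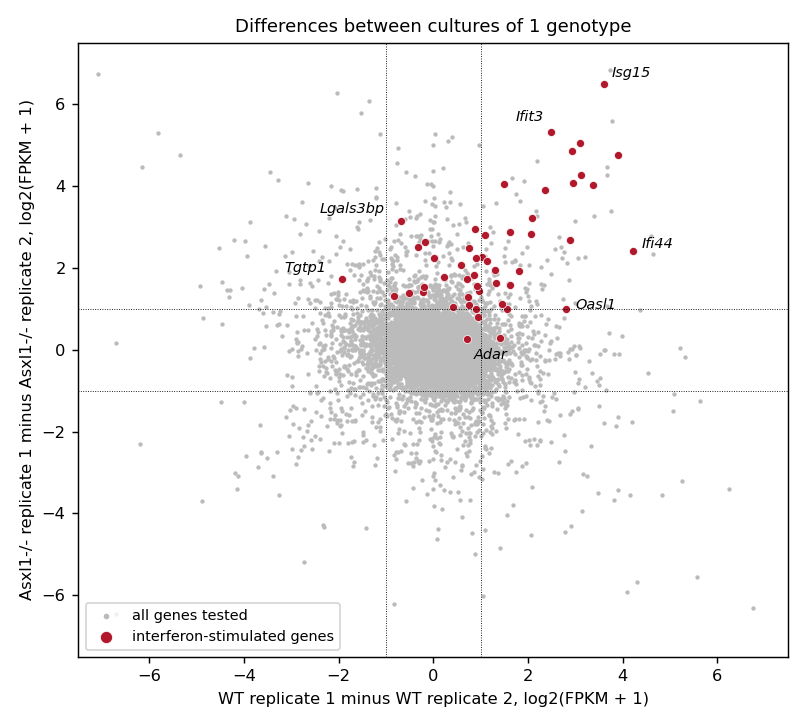
Difference between replicate 1 and replicate 2 of Asxl1-/- (vertical) and of WT (horizontal) in log2(FPKM + 1), with members in red, all genes tested in grey and dotted lines at 2-fold. Members crowd the upper right, with 24 past 2-fold on both axes, and 20 of 11481 genes lie beyond the axes at 7.5.

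Summed macrophage markers ran the other way between replicates 1 and 2 of each genotype. The 16 markers found summed to 81.0 FPKM in Asxl1-/- replicate 1 and 384.9 in Asxl1-/- replicate 2, against 7.62 in WT replicate 1 and 579.7 in WT replicate 2. In Asxl1-/- replicate 1 the sum was 8.80 without Fcer1g, which alone stood at 72.2 FPKM there. Of the 16, 1 was listed at 0 in Asxl1-/- replicate 1 and 4 in WT replicate 1, and none in the other libraries. Lyz2, the macrophage lysozyme, stood at 2.36 and 293.4 FPKM in Asxl1-/- and at 2.85 and 399.9 in WT. Asxl1-/- replicate 1 and WT replicate 1, which had the highest member sums, thus had the lowest macrophage sums, and the part of these cells in the differences between cultures was not tested. With the mean macrophage marker level as a covariate the median log2 fold change of the 50 members was 0.0035, against 0.12 without it. None was called with or without it. In 4 libraries this covariate mostly parts replicates 1 from replicates 2, and the fit leaves little to estimate the spread. It therefore cannot tell macrophage content from other differences between those cultures.

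Between the genotypes, limma on log2(FPKM + 1) with Benjamini-Hochberg adjustment over all genes called 0 of 50 members higher and 0 lower in Asxl1-/- at an adjusted p under 0.05, against 0% and 0.0261% of all genes tested. The adjusted p of the members ran from 0.562 to 0.999. At an unadjusted p under 0.05, 1 member was higher (2.51% of all genes) and 0 were lower (5.41%). The fold change was above 0 for 32 of 50 (43.2% of all genes), with a median of 0.12 against -0.07 over all genes tested. The genotypes did not overlap for 3 members, all higher in Asxl1-/- (15.6% of all genes were higher in this way), and 0 members were lower without overlap (25.2%). After median ratio scaling between libraries the same counts of 3 and 0 stood against 20.1% and 20.8% of all genes. All 50 passed the filter of a mean of at least 1 FPKM, but Mx1, Gbp6, Oas1a, Oas2, Oas3 and Oasl1 did so through their highest library, since the other 3 averaged under 1.

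By role, the median log2 fold change was 0.62 for the 9 GTPases, of which 6 were above 0, and 0.53 for the 7 oligoadenylate synthetases, of which 5 were. Of these 7, 4 passed the filter only through their highest library. That was Asxl1-/- replicate 1 for Oas1a, Oas2 and Oas3 and WT replicate 1 for Oasl1, so their median partly rests on single libraries. It was 0.33 for the 9 genes of Isg15, ubiquitin and ADP-ribose enzymes and 0.06 for the 9 antiviral effectors, with 6 above 0 in each. The 4 transcription factors and the 6 other induced genes had medians of 0.09, and the 6 sensors had -0.16.

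The sign of the set's median depended on which library was left out. Leaving out Asxl1-/- replicate 1 gave -0.94, and leaving out Asxl1-/- replicate 2 gave 1.33. Leaving out WT replicate 1 gave 0.79, and leaving out WT replicate 2 gave -0.45. With 3 libraries more genes of any kind fail to overlap. The members higher without overlap then numbered 38 with Asxl1-/- replicate 2 left out (29.6% of all genes at that setting), 13 with WT replicate 1 left out (29.9%) and 5 with WT replicate 2 left out (31%). Those lower numbered 34 with Asxl1-/- replicate 1 left out (40% of all genes) and 12 with WT replicate 2 left out (45.3%). Taking 1 library against 1, with no test, the median member difference was 0.72 for Asxl1-/- replicate 1 minus WT replicate 1 and 1.81 for Asxl1-/- replicate 1 minus WT replicate 2. For Asxl1-/- replicate 2 it was -1.36 against WT replicate 1 and -0.26 against WT replicate 2. In the comparison of the libraries with few macrophage transcripts, Asxl1-/- replicate 1 against WT replicate 1, 19 members were over 2-fold higher (7.73% of all genes) and 2, Ifi44 and Oasl1, over 2-fold lower (11.6%). In that of Asxl1-/- replicate 1 against WT replicate 2, 41 were over 2-fold higher (4.96%) and 0 lower (6.88%). Asxl1-/- replicate 2 was over 2-fold above WT replicate 1 for 1 member (6.51%) and over 2-fold below it for 30 (10.6%). In that of Asxl1-/- replicate 2 against WT replicate 2, 1 was over 2-fold higher (4.96%) and 6 over 2-fold lower (7.84%).

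**Figure D3:**
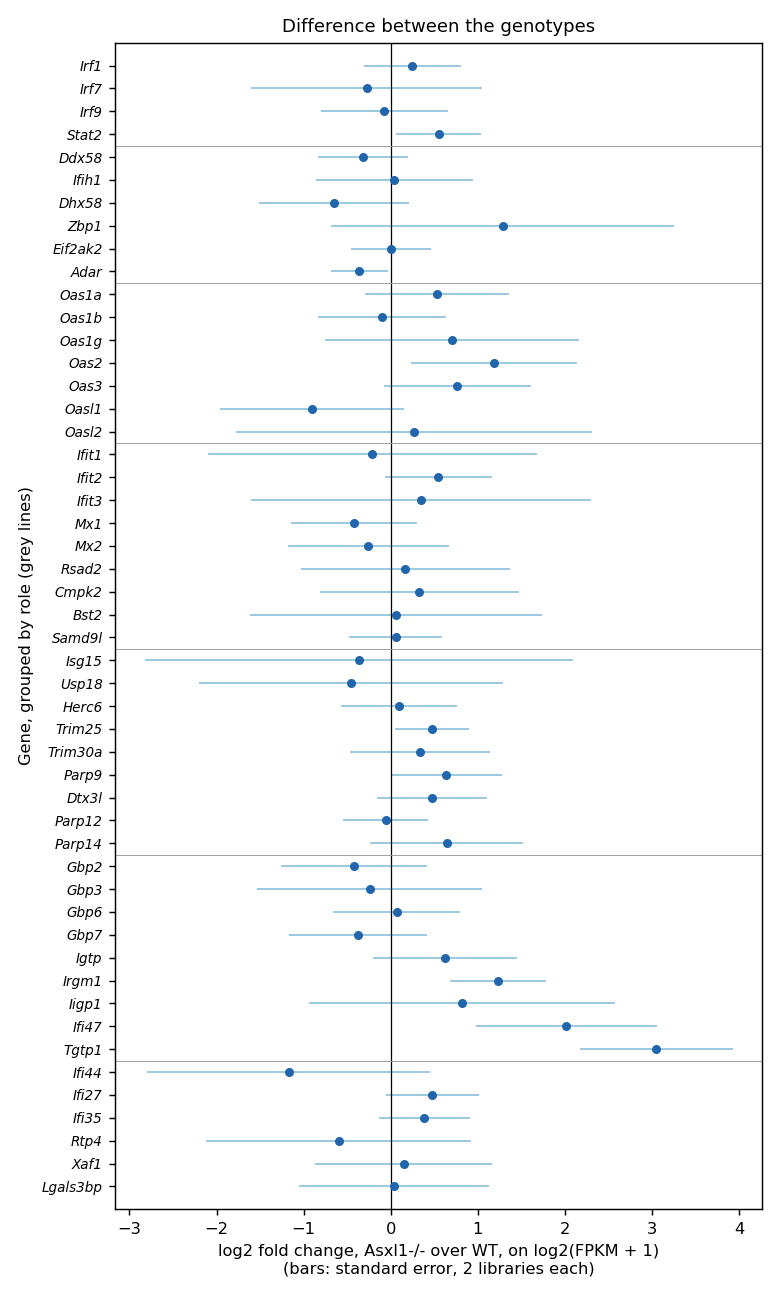
Log2 fold change of each member, Asxl1-/- over WT, with its limma standard error, by role (2 libraries each). The changes run from -1.17 for Ifi44 to 3.05 for Tgtp1, and Tgtp1, with a standard error of 0.88, lies farthest from 0.

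Among the transcription factors that carry the signal, Irf7, the factor that amplifies type I interferon output, stood at 19.0 and 2.11 FPKM in the Asxl1-/- cultures and 25.0 and 2.51 in the WT cultures. Irf9, the DNA-binding part of ISGF3, stood at 29.7 and 8.86 in the Asxl1-/- cultures and 28.0 and 10.5 in the WT cultures. For these the Asxl1-/- and WT values interleave, with replicate 1 high and replicate 2 low in each genotype. Stat2, the partner of Irf9, spanned less, with 30.3 and 14.8 in the Asxl1-/- cultures and 19.8 and 10.1 in the WT cultures. Irf1, induced chiefly by type II interferon, stood at 34.7 and 13.3 in Asxl1-/- and at 13.2 and 24.4 in WT, so here WT replicate 2 lay above WT replicate 1.

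The sensors of foreign nucleic acid included genes with narrow and with wide spans. Zbp1, which binds Z-form nucleic acid and can start necroptosis, stood at 55.9 and 0.720 FPKM in the Asxl1-/- cultures and 10.9 and 0.387 in the WT cultures. Its log2 fold change of 1.29 had a standard error of 1.97, and its sign turned without Asxl1-/- replicate 1 (-1.24) or WT replicate 2 (-0.26). Both replicates 2 were near 0 for this gene. Eif2ak2, the kinase PKR that halts translation on double-stranded RNA, stood at 29.5 and 16.6 in the Asxl1-/- cultures and 31.0 and 15.7 in the WT cultures. Ddx58, the RNA helicase RIG-I, was highest in WT replicate 1, with 16.4 and 13.3 in the Asxl1-/- cultures and 31.0 and 11.1 in the WT cultures. Of the related helicases, Ifih1 (MDA5) stood at 8.47 and 0.679 in the Asxl1-/- cultures and 4.04 and 1.99 in the WT cultures, and Dhx58 (LGP2), a regulator of both sensors, at 6.14 and 0.489 against WT values of 6.32 and 2.60. Adar, which edits adenosine to inosine in double-stranded RNA, ranged from 6.29 to 12.1 FPKM over the 4 libraries.

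The oligoadenylate synthetases make the messenger that activates RNase L, and Oasl1 and Oasl2 are their relatives. Oasl2 was the most abundant, at 51.4 and 0.952 FPKM in the Asxl1-/- cultures and 31.5 and 1.17 in the WT cultures. Oas1g stood at 16.4 and 0.0449 in the Asxl1-/- cultures and 3.39 and 0.567 in the WT cultures, and Oas1b at 4.17 and 0.469 against WT values of 2.97 and 1.20. Oas1a ranged from a listed 0 in Asxl1-/- replicate 2 to 3.23 FPKM in Asxl1-/- replicate 1. All 7 genes of the group were over 2-fold higher in Asxl1-/- replicate 1 than in Asxl1-/- replicate 2 (6% of all genes tested). Oas1a, Oas2 and Oas3 passed the filter only through Asxl1-/- replicate 1, so their place in this count is not independent of the filter. The transcripts of Oas1a and Oas1g are 97.6% identical, so reads may have been split between them. Oas2 stood at 6.25 and 0.163 in the Asxl1-/- cultures and 0.197 and 0.359 in the WT cultures, and Oas3 at 3.82 and 0.0264 against WT values of 0.319 and 0.299. For Oas2 and Oas3, Asxl1-/- replicate 1 was thus the one library above 1 FPKM. Their log2 fold changes were 1.19 (standard error 0.95) and 0.76 (0.84), and without Asxl1-/- replicate 1 they were -0.13 and -0.35. Oasl1, which in mice represses Irf7 translation, was high in WT replicate 1, with 1.01 FPKM and a listed 0 in the Asxl1-/- cultures and 5.99 and a listed 0 in the WT cultures.

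The effectors that act on viruses showed wide spans between cultures. Ifit1, which binds viral RNA, stood at 83.4 and 1.90 FPKM in the Asxl1-/- cultures and 49.0 and 5.56 in the WT cultures. Ifit3, its partner, stood at 154.5 and 2.89 in the Asxl1-/- cultures and 45.0 and 7.17 in the WT cultures. Its transcript is 97.8% identical to that of Ifit3b over 97.4% of its length. Bst2 (tetherin), which holds budding virus at the cell surface, stood at 270.5 and 15.1 in the Asxl1-/- cultures and 175.5 and 21.8 in the WT cultures. In all 3 genes both replicates 1 lay above both replicates 2, and the genotypes overlapped. Their log2 fold changes were -0.21 for Ifit1, 0.34 for Ifit3 and 0.06 for Bst2, with standard errors of 1.89, 1.95 and 1.68. Rsad2 (viperin), which makes a nucleotide that stops viral polymerases, and its neighbour Cmpk2, a mitochondrial nucleotide kinase, lie side by side on chromosome 12. Rsad2 stood at 6.36 and 0.0333 in the Asxl1-/- cultures and 4.01 and 0.205 in the WT cultures, and Cmpk2 at 7.25 and 0.120 against WT values of 3.25 and 0.376. The dynamin-like GTPases Mx1 and Mx2 reached at most 2.51 and 4.69 FPKM, both in WT replicate 1, and C57BL/6 mice carry a defective Mx1. Ifit2, a relative of Ifit1, and Samd9l, a growth-limiting factor, spanned from 5.57 to 21.0 and from 8.39 to 22.0 FPKM.

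Isg15, a ubiquitin-like protein attached to other proteins, stood at 136.5 and 0.531 FPKM in the Asxl1-/- cultures and 64.3 and 4.35 in the WT cultures. Asxl1-/- replicate 1 held 257 times the level of Asxl1-/- replicate 2, and WT replicate 1 held 14.8 times that of WT replicate 2. The transcript of an unnamed gene model is 95.2% identical to that of Isg15 over 63.8% of its length, so some reads may be shared. Usp18, which removes Isg15 and restrains the type I receptor, followed the same order within each genotype, with 23.9 and 0.539 in the Asxl1-/- cultures and 26.4 and 1.65 in the WT cultures. The genotype means of Isg15 were 68.5 ± 96.2 FPKM in Asxl1-/- and 34.3 ± 42.4 FPKM in WT (SD, n = 2 each), and those of Usp18 were 12.2 ± 16.5 FPKM in Asxl1-/- and 14.01 ± 17.5 FPKM in WT. Herc6, the main ligase that attaches Isg15 in mice, ranged from 1.51 to 7.25 FPKM. Trim25, a ubiquitin ligase that acts on RIG-I, stood at 25.6 and 12.0 in the Asxl1-/- cultures and 14.4 and 10.6 in the WT cultures. Parp9, which forms an ADP-ribosylating ubiquitin ligase with Dtx3l, stood at 26.2 and 8.21 in the Asxl1-/- cultures and 13.1 and 6.37 in the WT cultures. Dtx3l was highest in Asxl1-/- replicate 1, at 14.4 FPKM, and the rows of the pair overlap by 558 bp. Parp14, an ADP-ribosyltransferase, stood at 12.3 and 1.33 in the Asxl1-/- cultures and 2.2 and 2.99 in the WT cultures. Parp12 and Trim30a were also highest in Asxl1-/- replicate 1, at 17.1 and 19.2 FPKM.

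The immunity-related GTPases attack the vacuoles of intracellular pathogens and are strong targets of type II interferon. They held all 3 members without overlap between the genotypes, while 15.6% of all genes tested were higher in Asxl1-/- without overlap. Tgtp1 (mm10 chr11:48985329-48992246) stood at 169.0 and 50.7 FPKM in the Asxl1-/- cultures and 4.80 and 21.1 in the WT cultures. Its means were 109.8 ± 83.6 FPKM in Asxl1-/- and 12.96 ± 11.5 FPKM in WT (SD, n = 2 each). On the log2 scale it was 3.05 higher (standard error 0.88), with an unadjusted limma p of 0.0206 and an adjusted p of 0.562. It was the 1 member with an unadjusted p under 0.05, and its fold change ran from 2.08 to 4.01 as each library was left out. The transcripts of Tgtp1 and Tgtp2 are 99.8% identical, so their split is uncertain. The row of Tgtp2 had 9.53 and 0.856 FPKM in the Asxl1-/- cultures and 0.175 and 1.17 in the WT cultures. Irgm1 (chr11:48865249-48871346), a regulator of the family, stood at 129.6 and 44.1 in the Asxl1-/- cultures and 29.4 and 34.1 in the WT cultures (1.23 on the log2 scale, with a standard error of 0.56 and a limma adjusted p of 0.632). Ifi47 (chr11:49076587-49096987) stood at 46.3 and 5.08 in the Asxl1-/- cultures and 4.68 and 2.11 in the WT cultures (2.02 on the log2 scale, with a standard error of 1.04 and a limma adjusted p of 0.666). For this gene 5.08 and 4.68 were the nearest values of the genotypes, and they overlapped once each library's chromosome medians were removed. The row of Ifi47 lies within that of Olfr56, so its reads are uncertain. With 2 libraries against 2, an exact permutation test could not go below 0.333.

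**Figure D4:**
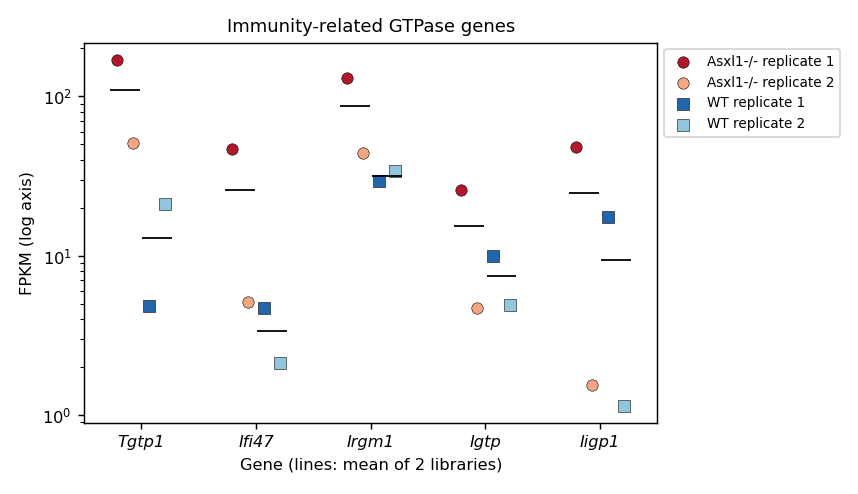
FPKM of 5 immunity-related GTPase genes on a log axis, with Asxl1-/- libraries as circles left of WT libraries as squares and lines at the mean of 2 libraries. Tgtp1, Ifi47 and Irgm1 have both circles above both squares, while Igtp and Iigp1 interleave.

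The other immunity-related GTPases overlapped between the genotypes. Iigp1 stood at 47.9 and 1.54 FPKM in the Asxl1-/- cultures and 17.6 and 1.15 in the WT cultures, and Igtp at 26.0 and 4.68 against WT values of 10.0 and 4.88. Both had replicate 1 above replicate 2 in each genotype. The 3 members without overlap lie close together on chromosome 11, between 48865249 and 49096987, whereas Igtp lies farther along it. Tgtp2 lies within the same stretch, and its row overlapped between the genotypes. Irgm2, near Igtp, also overlapped, at 36.2 and 5.47 FPKM in the Asxl1-/- cultures and 8.64 and 5.21 in the WT cultures. The median deviation of genes on chromosome 11 was 0.11 and -0.04 in Asxl1-/- replicates 1 and 2 and -0.14 and 0.07 in WT replicates 1 and 2. Guanylate-binding proteins are larger GTPases of the same defence. Gbp2 stood at 25.6 and 4.89 in the Asxl1-/- cultures and 23.7 and 10.3 in the WT cultures, and Gbp3 at 15.7 and 0.795 against WT values of 12.4 and 2.15. Gbp7 and Gbp6 were highest in WT replicate 1, at 6.93 and 2.06 FPKM. The transcript of Gbp6 is 99.8% identical to that of Gm43302 and 98.7% identical to that of Gbp10, so its reads are uncertain. Chromosome 3, which holds Gbp2, Gbp3, Gbp7, Ifi44 and Adar, had a median deviation of -0.44 in Asxl1-/- replicate 1 and 0.42 in WT replicate 1.

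Among the remaining induced genes, Ifi44 stood at 4.59 and 0.0590 FPKM in the Asxl1-/- cultures and 22.6 and 0.272 in the WT cultures. Its log2 fold change of -1.17 (standard error 1.62) was the lowest of the 50, and it was 0.94 without WT replicate 1 and 0.029 without Asxl1-/- replicate 2. Rtp4, a chaperone-like inhibitor of viral replication, stood at 33.9 and 1.33 in the Asxl1-/- cultures and 30.0 and 5.01 in the WT cultures. Xaf1, an antagonist of apoptosis inhibitors, stood at 18.5 and 1.79 against WT values of 8.76 and 3.56. Lgals3bp, a secreted glycoprotein, differed from these, with 247.4 and 26.9 in the Asxl1-/- cultures and 63.2 and 101.9 in the WT cultures. Ifi27 stood at 136.4 and 51.6 in the Asxl1-/- cultures and 50.1 and 71.9 in the WT cultures, and Ifi35 at 37.5 and 13.4 against WT values of 15.8 and 18.4. In these 3 genes Asxl1-/- replicate 1 was highest and WT replicate 2 lay above WT replicate 1, as for Irf1. The row of Ifi27 lies within that of Ifi27l2a, so the split between them is uncertain.

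Apart from Ifnz, messenger RNA of the interferons themselves was listed at or near 0. Of 21 type I, II and III ligand genes, 18 were listed at 0 in all 4 libraries, among them Ifnb1 and Ifng. Ifna13 had 0.0657 FPKM in WT replicate 2 and Ifne 0.0853 FPKM in Asxl1-/- replicate 1. Ifnz stood at 0.835 and 0.482 FPKM in the Asxl1-/- cultures and 1.35 and 0.531 in the WT cultures. A listed 0 does not show absence, since the read depth is unknown.

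The receptors and kinases lay closer together between cultures than the induced genes. Of 9 such genes, 8 were tested, and 0 passed the adjusted limma threshold. At an unadjusted limma p under 0.05, 1 was higher in Asxl1-/- (2.51% of all genes tested) and 0 were lower (5.41%). None was over 2-fold higher in Asxl1-/- replicate 1 than in Asxl1-/- replicate 2 (6% of all genes). Ifnar2, a chain of the type I receptor, stood at 38.7 and 24.6 FPKM in the Asxl1-/- cultures and 44.0 and 27.8 in the WT cultures, and Jak1 at 40.7 and 26.0 against WT values of 46.9 and 23.3. Ifngr1, the ligand-binding chain of the type II receptor, stood at 49.6 and 34.5 in the Asxl1-/- cultures and 21.1 and 23.7 in the WT cultures, without overlap (0.86 on the log2 scale, with a standard error of 0.28 and a limma adjusted p of 0.594). Il10rb, a receptor chain shared with interleukin 10, stood at 18.9 and 15.0 in the Asxl1-/- cultures and 15.2 and 14.04 in the WT cultures. Jak2 stood at 19.3 and 15.6 in the Asxl1-/- cultures and 11.9 and 18.5 in the WT cultures, and both genes overlapped between the genotypes.

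Of 19 sensors and adaptors upstream of interferon, 15 were tested, and 0 passed the limma threshold, adjusted or unadjusted (unadjusted, 2.51% of all genes were higher and 5.41% lower). Without overlap, 5 of the 15 were higher in Asxl1-/- (15.6% of all genes tested) and 4 lower (25.2%). Irf5 stood at 1.35 and 1.57 FPKM in the Asxl1-/- cultures and 2.78 and 5.15 in the WT cultures, and the adaptor Myd88 at 22.0 and 22.6 against WT values of 10.5 and 18.2. The RNase H2 subunit Rnaseh2c stood at 23.7 and 13.6 in the Asxl1-/- cultures and 52.6 and 25.9 in the WT cultures. Mb21d1, the DNA sensor cGAS, stood at 1.31 and 0.859 in the Asxl1-/- cultures and 2.33 and 2.32 in the WT cultures. Samhd1, a nucleotide-degrading enzyme, stood at 49.0 and 25.4 in the Asxl1-/- cultures and 39.4 and 25.6 in the WT cultures. Of 6 brakes on the pathway, 0 passed it either way. Socs1 stood at 1.24 and 1.66 in the Asxl1-/- cultures and 4.36 and 1.32 in the WT cultures, Socs3 at 17.8 and 32.3 against WT values of 31.7 and 11.6, and Ptpn2 at 18.4 and 15.5 against WT values of 27.3 and 15.7. The phosphatase gene Ptpn11 stood at 36.8 and 39.7 in the Asxl1-/- cultures and 38.1 and 28.0 in the WT cultures, and Ptpn6 at 0.203 and 1.83 against WT values of 0.741 and 2.47.

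A list of 46 further interferon-stimulated genes, of which 40 were tested, also differed between cultures. Asxl1-/- replicate 1 was over 2-fold above Asxl1-/- replicate 2 for 27 of 40 (6% of all genes tested), and WT replicate 1 above WT replicate 2 for 12 (6.67%). The median log2 fold change was 0.13, and 0 passed the limma threshold, adjusted or unadjusted (unadjusted, 2.51% of all genes were higher and 5.41% lower). Without overlap, 2 were higher in Asxl1-/- (15.6% of all genes) and 1 lower (25.2%). Slfn5, a Schlafen family gene, stood at 12.4 and 1.53 FPKM in the Asxl1-/- cultures and 0.0786 and 0.592 in the WT cultures. Ifitm1 stood at 2.74 and 2.11 in the Asxl1-/- cultures and 0.845 and 1.22 in the WT cultures. Helz2 was lower in both Asxl1-/- libraries, at 4.10 and 2.45 against 8.77 and 4.24 in WT, and Ifi27l2a stood at 22.3 and 8.13 against WT values of 58.7 and 18.3. The abundant Ifitm2 and Ifitm3, which block virus entry, were highest in Asxl1-/- replicate 2 and WT replicate 2 in that order. Ifitm3 stood at 603.8 and 424.9 in the Asxl1-/- cultures and 451.2 and 652.8 in the WT cultures, and Ifitm2 at 236.8 and 372.6 against WT values of 313.1 and 363.9.

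**Figure D5:**
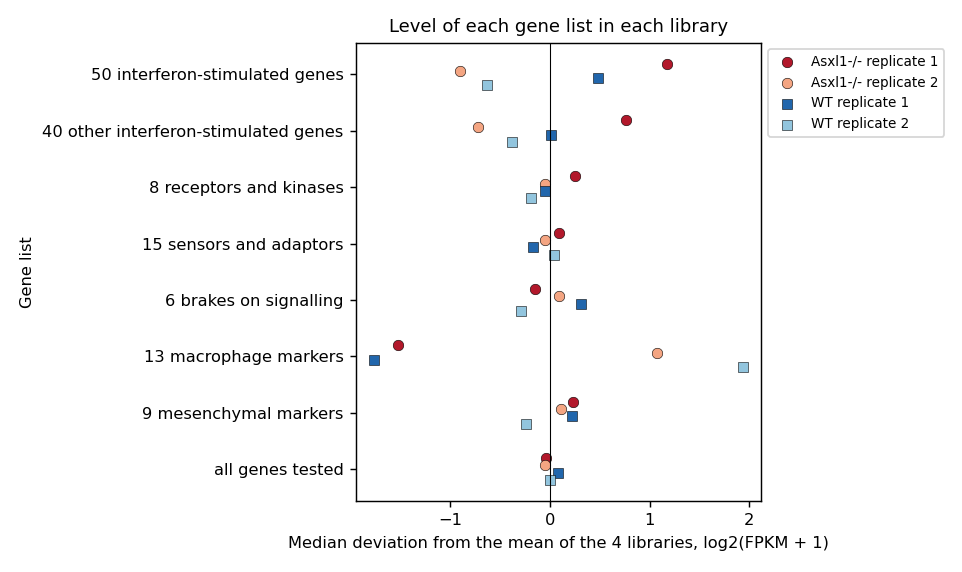
Median deviation of each list's tested genes from their mean over the 4 libraries, in log2(FPKM + 1), with Asxl1-/- libraries as circles and WT libraries as squares. The 50 members lie at 1.17 and -0.90 in Asxl1-/- replicates 1 and 2, macrophage markers at -1.52 and 1.07, and receptors and kinases between -0.19 and 0.25 in the 4 libraries.

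In the authors' deposited table, 1 of 50 members is marked significant and higher in Asxl1-/-, against 0.543% of genes tested there, and 0 lower (0.396%). The marked gene is Tgtp1, with group values of 137.7 FPKM in Asxl1-/- and 15.3 in WT, a log2 difference of 3.17 and a q-value of 0.00836. Of the 50, 11 are higher with a p-value under 0.05 in the authors' deposited table (3.22% of genes tested there) and 2 are lower (4.11%). The 11 are Tgtp1, Irgm1, Ifi47, Igtp, Iigp1, Ifit3, Oas1g, Oas2, Oas3, Parp14 and Zbp1. Each of them had its highest FPKM in Asxl1-/- replicate 1, and all but Tgtp1, Irgm1 and Ifi47 overlapped between the genotypes. The median log2 fold change of the members in the authors' deposited table is 0.72, against 0.0094 over all genes tested there, and it is above 0 for 39 of 50 (50.6% of genes). Those values are ratios of group FPKM, whereas the median of 0.12 above is a difference of mean log2 values. Those lower in the authors' deposited table are Ifi44 and Oasl1, at log2 fold changes of -2.14 and -2.42. Both had their highest FPKM in WT replicate 1. The authors' deposited table gives Irgm1 a log2 fold change of 1.56 and Ifi47 one of 3.05. Its scaling differs from that of the FPKM table. The group values come from these same libraries and are not independent support.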

How the data were processed

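RNA sequencing of 2 Asxl1-/- and 2 WT cultures was analysed from the authors' files. Per the submitters' processing notes, the tools were TopHat2 2.0.3, Cufflinks 2.2.1 and Cuffdiff with build mm10. The sources used here do not name the annotation, the kit or its strandedness. FPKM per gene were deposited by the authors in 24487 rows, of which the row with the highest mean was kept per symbol. The authors' deposited Cuffdiff table gives FPKM per group, a log2 fold change, a p-value and a q-value. The FPKM table also holds 2 per-sample columns that match no sample, which were not used. Table starts plus 1 equalled the RefSeq start for 13490 of 22500 symbols (without the 1, for 727), so 1 was added.

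Since FPKM are not counts, limma (version 3.58.1, R 4.3.3; variance trend) was run on log2(FPKM + 1) of the 11481 genes that averaged at least 1 FPKM, with Benjamini-Hochberg adjustment at 0.05, two-sided; this scale understates changes of low genes. The procedure was tested on simulated data with a spread between replicates smaller than that of the members, so the test does not show its power for them. Copies were sought with BLAST (version 2.17.0) in GENCODE transcripts, at 95% identity over at least 50% of the length. Python (version 3.11.15) made tables and figures. Genotypes were taken from the labels and replicates numbered in accession order. Members and lists were chosen with earlier results of these data known. Values in every library are given for members with an unadjusted p under 0.05 or no overlap, the 3 most abundant per role, the 10 largest fold changes and, for other pathway lists, the 4 smallest p and 2 most abundant; other members named with values were chosen after these were seen. Fold changes with 2 libraries a genotype are imprecise, and the depth is unknown. A gene of the pathway is not reported here.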

Additional observations from a re-analysis of the deposited data

How the results depend on the processing

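The 0 called members held at a pseudocount of 0.1 or 0.5, unfiltered or at 5 FPKM, after quantile normalization or median ratio scaling, other eBayes settings, without rows under 300 bp, with a macrophage covariate, with chromosome medians removed and with each library left out. Members with an unadjusted limma p under 0.05 numbered 0 higher unfiltered (1.98% of all genes) and 1 lower (Ifi44) with the macrophage covariate (5.03%). With each library left out they ran from 0 to 13 higher (2.38% of all genes at the setting that gave 13) and from 0 to 2 lower (7.82% at that which gave 2). Members without overlap then ran from 3 (28%) to 38 (29.6%) higher and from 0 (39.5% without Asxl1-/- replicate 2) to 34 (40%) lower, and the median fold change from -0.94 to 1.33. Extremes came without Asxl1-/- replicate 1 or 2, apart from the 2 lower, without WT replicate 2. Ranges crossing 0 were -1.24 to 3.81 for Zbp1, -0.13 to 2.51 for Oas2, -0.35 to 1.88 for Oas3, -1.33 to 2.73 for Oas1g, -1.32 to 2.95 for Iigp1, -3.28 to 0.94 for Ifi44 and -2.30 to 0.50 for Oasl1. The cause was not tested. Between cultures, 45 to 47 members of 50 passed 2-fold in Asxl1-/- and 25 to 32 in WT, except at 5 FPKM, where 35 were tested and 31 and 18 passed. No paired analysis was possible because replicate numbers follow accession order. Depth is unknown, so ranks among levels near 0 are uncertain.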

Other observations

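Some of the further interferon-stimulated genes, chosen after their values were seen, stood higher in WT replicate 2 than in WT replicate 1. Of the 50 members, 42 stood higher in WT replicate 1. The immunoproteasome subunit genes Psmb8 and Psmb9 and the peptide transporter Tap1, neighbours in the MHC region of chromosome 17, were high in WT replicate 2. Psmb8 stood at 25.1 and 0.719 FPKM in the Asxl1-/- cultures and 4.12 and 14.8 in the WT cultures, Psmb9 at 10.9 and 0.553 against WT values of 1.45 and 6.45, and Tap1 at 17.8 and 4.75 against WT values of 6.73 and 22.1. The nuclear body gene Sp100 stood at 22.1 and 0.574 in the Asxl1-/- cultures and 0.0588 and 3.01 in the WT cultures. Cxcl10, a chemokine induced by interferon and chosen likewise, was highest in WT replicate 1, as were 12 of the 50 members. It stood at 6.81 and 0.548 FPKM in the Asxl1-/- cultures and at 44.8 and 0.842 in the WT cultures.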
